A study of Mus musculus with 18 samples.

Results

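The genes described here encode the core factors of pre-mRNA splicing whose symbols begin with Srsf and a digit, Hnrnp, Sf3a or Sf3b and a digit, U2af, or Snrp. The rule for membership used the symbol alone, but it was set with earlier results of these data known. Only genes that the authors called in at least 1 table could be described. In all, 51 such genes were listed in at least 1 of the 3 deposited tables, out of 10110 genes listed in any of them. RefSeq holds 56 protein-coding genes whose symbols fit, and 5 of these were listed nowhere, namely Hnrnpa3, Sf3b2, Srsf12, U2af1l4 and Hnrnpa1l2-ps2. A further 5 fitting RefSeq entries that are not protein-coding were not listed either. The 51 genes comprised 10 SR protein genes, 19 hnRNP genes, 8 SF3A and SF3B subunit genes, 2 U2AF subunit genes and 12 Snrp genes.

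Polyadenylated RNA was measured in 2 immortalized lines of mouse embryonic fibroblasts, eIF2aS51A (S51A) and Wild-Type (WT). The S51A line carries eIF2α with alanine in place of serine 51, the site whose phosphorylation under stress holds back protein synthesis. S51A and WT cells were untreated (0 min) or were treated with the oxidant hydrogen peroxide at 500 µM for 15 or 120 min, with 3 samples labelled for each of the 6 groups, although the design text speaks of duplicates. The deposited tables give 1 FPKM value per group and gene, that is, fragments corrected for transcript length and for library size, so no spread between samples can be shown and the depth is unknown. Every call of a difference is the authors' own, at a q-value of at most 0.05, and a gene missing from a table says nothing about equality. With 1 line per genotype, effects of the mutation and of the line cannot be told apart. Separate cultures are not mentioned in the labels, so the q-values may measure technical spread only. In bulk RNA, fewer cells with a transcript and less of it per cell cannot be told apart.

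Splicing removes introns through small nuclear ribonucleoproteins (snRNPs), each a small nuclear RNA held by a ring of Sm proteins together with proteins particular to that particle. U2AF recruits the U2 snRNP to the 3' end of the intron, and SF3A and SF3B, within that particle, hold it at the branch point. SR proteins bind exons and promote splice site use, and hnRNPs coat nascent RNA and often oppose it. Many SR protein and hnRNP genes limit their own output by splicing in exons that send the transcript to nonsense-mediated decay.

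The fibroblast label could be checked only through marker genes that were listed. Of 13 fibroblast markers 10 were listed at 0 min, with a summed level of 3827 FPKM in S51A and 2591 FPKM in WT. Without the collagen genes Col1a1 and Col1a2, both higher in S51A, the sum was 1570 FPKM in S51A and 2195 FPKM in WT. Of these 8 other markers 5 were higher and 3 lower in S51A. Postn was at 13.7 FPKM in S51A and 0.599 FPKM in WT. The 3 lower ones were Vim at 1075 FPKM in S51A and 1872 FPKM in WT, Dcn at 8.88 FPKM in S51A and 54.2 FPKM in WT, and Thy1 at 10.6 FPKM in S51A and 23.6 FPKM in WT. At 120 min 6 markers other than Col1a1 and Col1a2 were listed, summing to 1358 FPKM in S51A and 655 FPKM in WT. Most of that sum was S100a4, at 1252 FPKM in S51A and 545 FPKM in WT. Among markers of other cell types, the epithelial keratin gene Krt19 was at 8.17 FPKM in S51A and 6.06 FPKM in WT at 0 min, at 10.1 FPKM in S51A and 5.21 FPKM in WT at 15 min, and at 21.7 FPKM in S51A and 8.40 FPKM in WT at 120 min. It was the 1 listed gene of 5 epithelial markers. Cd68 was listed at 0 min, at 1.11 FPKM in S51A and 1.97 FPKM in WT, and Des at 15 min, at 0.688 FPKM in S51A and 0.149 FPKM in WT, while no endothelial marker was listed. The part of these differences in the results was not tested.

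In untreated cells, splicing factor transcripts were lower in S51A almost throughout. Of 45 listed genes 42 were lower and 3 higher, while 50.4% of all 7549 listed genes were lower and 49.6% higher. Their median log2 ratio of S51A over WT was -0.54, against -0.27 for all listed genes. The differences were modest in size, with a median fold of 1.45. The lowest q-value in the authors' deposited table, 0.000118, was shared by 25 of the 45 and by 4905 of all 7555 entries. By a minimum fold of 1.5, 19 of the 45 were lower, against 32.3% of all listed genes, and 1 of the 45 was higher, against 35.6%. These genes are highly expressed, and the direction of listed genes went with level: 87% of all listed genes with a geometric mean over both lines of at least 128 FPKM were lower, as were all 22 splicing factor genes in that class. Between 32 and 128 FPKM the shares were 75% of listed genes and 17 of 20 splicing factor genes. The part of expression level in the count was not tested.

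All 10 listed SR protein genes were lower in untreated S51A cells. Srsf2, which encodes the exon-binding factor SC35 (chromosome 11, deposited locus 116849897 to 116853094, mm10), was at 239 FPKM in S51A and 474 FPKM in WT, a 1.99-fold difference (q = 0.000118 in the authors' deposited table). Srsf9 was at 122 FPKM in S51A and 195 FPKM in WT, Srsf4 at 42.5 FPKM in S51A and 67.2 FPKM in WT, and Srsf3 at 132 FPKM in S51A and 208 FPKM in WT. Srsf1, a founding member of the family, had a smaller difference, at 132 FPKM in S51A and 164 FPKM in WT (q = 0.0097 in the authors' deposited table). The SR protein genes thus spanned log2 ratios from -0.99 to -0.32, all on one side.

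Both listed U2AF subunit genes were lower too. U2af1, the small subunit that reads the AG at the 3' splice site, was at 176 FPKM in S51A and 326 FPKM in WT. U2af2, the large subunit that binds the polypyrimidine tract, was at 88.0 FPKM in S51A and 148 FPKM in WT. Of the SF3A and SF3B genes, whose products hold the U2 snRNP at the branch point, 5 of 5 were lower. Sf3a3 differed most, at 80.5 FPKM in S51A and 154 FPKM in WT, whereas Sf3b1, the branch point clamp and a frequent target of mutation in blood cancers, was at 76.1 FPKM in S51A and 93.7 FPKM in WT (q = 0.0139 in the authors' deposited table).

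The 10 listed Snrp genes were all lower in untreated S51A cells, with the lowest median of the larger role groups, -0.74 on the log2 scale. Within the Sm ring, Snrpe was at 276 FPKM in S51A and 508 FPKM in WT, and Snrpd1 at 181 FPKM in S51A and 322 FPKM in WT. Snrpa1, a protein of the U2 particle (chromosome 7, 66060336 to 66074587), was at 57.7 FPKM in S51A and 116 FPKM in WT. Snrpn, an imprinted gene whose product resembles the Sm protein encoded by Snrpb, stood apart in level, at 1.60 FPKM in S51A and 4.76 FPKM in WT. It had the largest fold of the members at 0 min, 2.95, but at a level far under the others.

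The hnRNP genes were the divided group, with 15 lower and 3 higher of 18. Hnrnpm was at 228 FPKM in S51A and 362 FPKM in WT, and Hnrnpa1, a repressor of exon inclusion, at 143 FPKM in S51A and 226 FPKM in WT. The Hnrnpa1 level is uncertain, because 44.8% of the 75-base stretches of its coding transcripts occur exactly in transcripts of 13 annotated pseudogenes. Hnrnpu, a nuclear matrix and chromatin-associated hnRNP, was at 315 FPKM in S51A and 465 FPKM in WT. On the other side, Hnrnpul2 (chromosome 19, 8819401 to 8834142) was at 74.0 FPKM in S51A and 36.8 FPKM in WT, a 2.00-fold difference (q = 0.000118 in the authors' deposited table). Hnrnph2, a G-tract binding hnRNP, was at 59.3 FPKM in S51A and 44.0 FPKM in WT, and Hnrnpul1 was at 69.5 FPKM in S51A and 54.6 FPKM in WT. The 2 Hnrnpul genes, related in sequence to Hnrnpu, were thus on the opposite side from Hnrnpu itself.

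**Figure D1:**
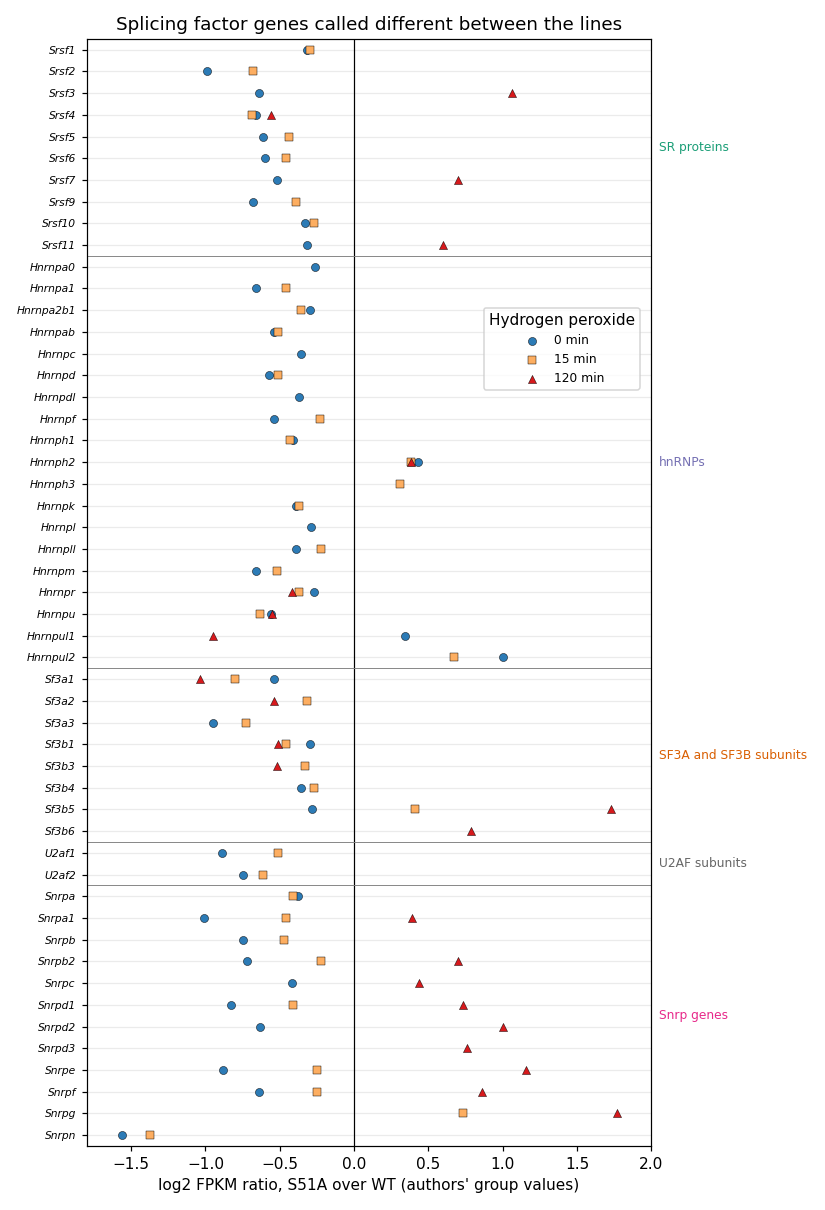
Log2 ratio of the group FPKM values, S51A over WT, for each listed splicing factor gene (rows, by role), with circles for 0 min, squares for 15 min and triangles for 120 min of peroxide; a missing symbol means not listed. Circles lie left of 0 for 42 of 45 genes, and the triangles of all 9 listed Snrp genes lie right of 0.

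After 15 min of peroxide the direction was mostly as before. Of the 34 genes called in the same direction at 0 and 15 min, 26 had a smaller fold at 15 min and 8 a larger one. Hnrnpu and Sf3a1 were among those 8. This count was not made over all listed genes, so it is not shown to be particular to the members. Of 39 listed genes 34 were lower and 5 higher in S51A, while 50.1% of all 8289 listed genes were lower and 49.9% higher. By a minimum fold of 1.5, 7 of the 39 were lower, a smaller share than the 27% of all listed genes. At that fold 2 of the 39 were higher, against 32.3%. The median log2 ratio was -0.41, against -0.20 for all listed genes, and the median fold was 1.35. Of genes with a mean of at least 128 FPKM, 75.9% of all listed genes and 15 of 16 splicing factor genes were lower. Of the genes lower at 0 min, 32 were lower again, 9 were not listed, and 1, Sf3b5, was higher. Srsf2 was at 261 FPKM in S51A and 419 FPKM in WT, U2af1 at 187 FPKM in S51A and 267 FPKM in WT, and Hnrnpu at 315 FPKM in S51A and 488 FPKM in WT.

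The exceptions at 15 min included genes of very small proteins. Sf3b5, the smallest SF3B subunit (chromosome 10, 13008450 to 13009183), was at 135 FPKM in S51A and 101 FPKM in WT (q = 0.000102 in the authors' deposited table), having been at 115 FPKM in S51A and 140 FPKM in WT at 0 min. Snrpg, a Sm ring gene not listed at 0 min (chromosome 6, 86371540 to 86378902), was at 223 FPKM in S51A and 135 FPKM in WT. The other genes on this side were hnRNP genes, with Hnrnpul2 at 68.1 FPKM in S51A and 42.8 FPKM in WT, Hnrnph2 at 60.5 FPKM in S51A and 46.5 FPKM in WT, and Hnrnph3 at 25.1 FPKM in S51A and 20.3 FPKM in WT. Hnrnph3 was listed at no other time.

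After 120 min fewer splicing factor genes were called, and they lay on both sides. Of 23 listed genes 15 were higher and 8 lower in S51A, while 50.9% of all 6105 listed genes were higher and 49.1% lower. Their median log2 ratio was 0.60, against 0.42 for all listed genes. All 9 listed Snrp genes were higher, and SR protein, hnRNP and SF3 genes had calls in both directions, with 6 higher and 8 lower together. Short transcripts of high level were mostly higher among all listed genes: under 1000 nt and with a geometric mean of at least 128 FPKM, 177 of 183 listed genes (96.7%) were higher, a class that held 8 of the members, all higher. By a minimum fold of 1.5, 12 of the 23 members were higher, against 43.3% of all listed genes, and 2 of the 23 were lower, against 39.8%. No U2AF gene was listed at 120 min.

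Of the 7 Sm ring genes 6 were listed at 120 min, all higher in S51A. Snrpg was at 622 FPKM in S51A and 181 FPKM in WT, a 3.41-fold difference and the largest among the members (q = 0.000198 in the authors' deposited table). Snrpe was at 996 FPKM in S51A and 449 FPKM in WT, Snrpd2 at 410 FPKM in S51A and 205 FPKM in WT, and Snrpd3 at 729 FPKM in S51A and 431 FPKM in WT. Snrpf, also in the ring, was at 261 FPKM in S51A and 144 FPKM in WT. Snrpb was the ring gene not listed at this time. Proteins particular to U1 or U2 particles had smaller differences: Snrpb2 was at 236 FPKM in S51A and 145 FPKM in WT, Snrpc at 158 FPKM in S51A and 117 FPKM in WT, and Snrpa1 at 152 FPKM in S51A and 116 FPKM in WT (q = 0.046 in the authors' deposited table).

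The SF3A and SF3B genes were divided by subunit. Of the members listed, 2 genes for small SF3B proteins were higher. Sf3b5 was at 367 FPKM in S51A and 111 FPKM in WT (3.32-fold, q = 0.000198 in the authors' deposited table). Sf3b6, which contacts the branch point adenosine, was at 126 FPKM in S51A and 73.0 FPKM in WT. The 4 other listed subunits were lower. Sf3a1 (chromosome 11, 4160354 to 4182541) was at 20.97 FPKM in S51A and 43.4 FPKM in WT, a 2.06-fold difference. Sf3a2 was at 45.9 FPKM in S51A and 66.7 FPKM in WT, Sf3b1 at 68.6 FPKM in S51A and 97.7 FPKM in WT, and Sf3b3 at 76.6 FPKM in S51A and 110 FPKM in WT (q = 0.0061 in the authors' deposited table). Within SF3B, transcripts for Sf3b5 and Sf3b6 therefore stood on the other side from those for Sf3b1 and Sf3b3. The higher genes had the shorter transcripts, Sf3b5 at 734 nt and Sf3b6 at 1116 nt. Those of the lower genes ran from 1674 nt (Sf3a2) to 6191 nt (Sf3b1). The part of length in this split was not tested.

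Of the SR protein genes 3 were higher and 1 lower at 120 min. Srsf3, the smallest SR protein (chromosome 17, 29032660 to 29043372), was at 309 FPKM in S51A and 148 FPKM in WT. Srsf7, which like Srsf3 also serves in mRNA export, was at 236 FPKM in S51A and 145 FPKM in WT, and Srsf11 at 119 FPKM in S51A and 77.7 FPKM in WT. Srsf4 was lower, at 44.3 FPKM in S51A and 65.3 FPKM in WT. Of the hnRNP genes Hnrnpul1 was at 29.2 FPKM in S51A and 56.5 FPKM in WT, having been the higher one in S51A at 0 min. Hnrnpu was at 326 FPKM in S51A and 478 FPKM in WT, Hnrnpr at 25.6 FPKM in S51A and 34.5 FPKM in WT, and Hnrnph2, again the exception, at 64.5 FPKM in S51A and 49.2 FPKM in WT.

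**Figure D2:**
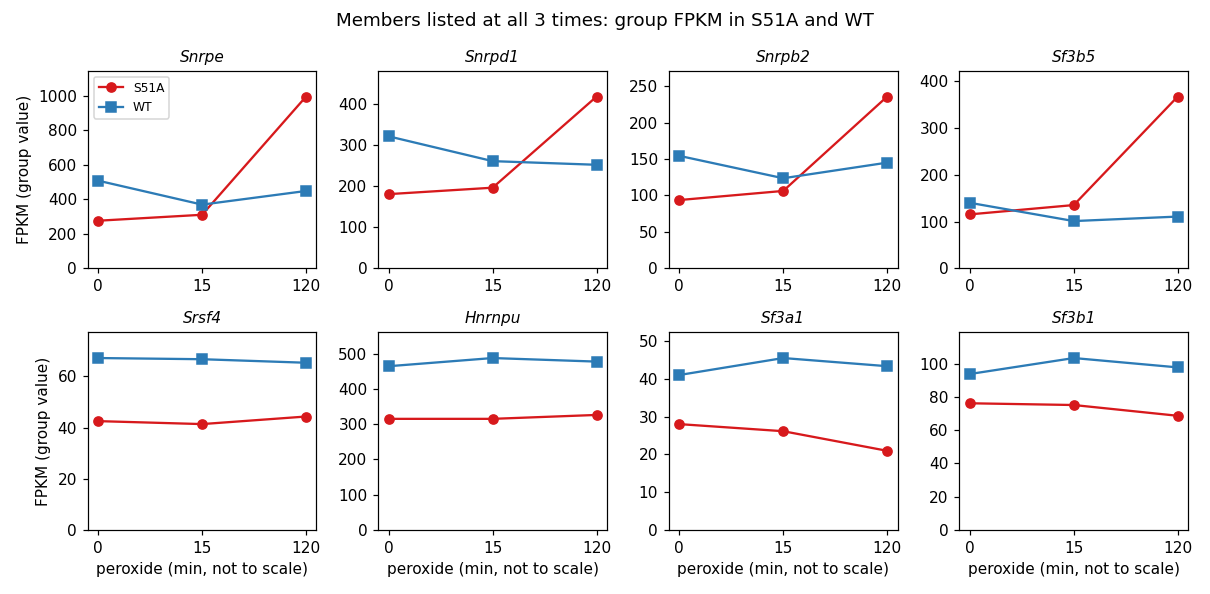
Group FPKM (vertical axis from 0) at 0, 15 and 120 min of peroxide in S51A (circles) and WT (squares) for 8 of the 12 genes listed at all 3 times, with 1 value per group and no error. In the upper row S51A is under WT at 0 min and over it at 120 min, as for Snrpe at 996 FPKM in S51A and 449 FPKM in WT; in the lower row S51A is under WT throughout.

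In all, 12 splicing factor genes were called in opposite directions at different times. Of these 11 were lower in S51A at 0 min and higher at 120 min, namely Snrpa1, Snrpb2, Snrpc, Snrpd1, Snrpd2, Snrpe, Snrpf, Sf3b5, Srsf3, Srsf7 and Srsf11. Hnrnpul1 went the other way. Among members lower at 0 min and listed again at 120 min, 11 of 16 (68.8%) had turned higher, against 449 of 2242 listed genes (20%). Short transcripts of high level differed likewise between the times among all listed genes. Under 1000 nt and with a geometric mean of at least 128 FPKM, 4.73% were higher at 0 min and 96.7% at 120 min. The part of length and level in the turned calls was not tested. Of the 12 genes listed at all times, 5 were lower at each (Srsf4, Hnrnpr, Hnrnpu, Sf3a1 and Sf3b1) and Hnrnph2 was higher at each. In the authors' deposited table Srsf4 had about the same log2 ratio at 0, 15 and 120 min, at -0.66, -0.69 and -0.56, while that of Sf3a1 was -0.54, -0.80 and -1.04.

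The levels of the turned genes differed over time mostly in S51A. From 0 to 120 min the Snrpe value was 3.61 times as high in S51A, and 0.883 times in WT. For Sf3b5 these factors were 3.18 in S51A and 0.790 in WT, for Snrpf 2.95 in S51A and 1.04 in WT, and for Srsf3 2.33 in S51A and 0.712 in WT. For Hnrnpul1 they were 0.420 in S51A and 1.03 in WT. Set against the median of the 4328 genes listed at both times, on the scale of log2 (FPKM + 1), the 18 members listed at both had a median change of 1.08 in S51A and 0.06 in WT. Without that centring the WT median was -0.035, so it has no clear sign. In S51A the 7 Snrp genes among them had centred changes between 0.88 and 2.02, while in WT they lay between -0.25 and 0.16. From 0 to 15 min the corresponding medians over 35 members were 0.01 in S51A and -0.12 in WT. For the 8 Snrp genes in that set they were 0.09 in S51A and -0.31 in WT, so the early narrowing of the gap lay more in the WT values. Whether the authors scaled the tables jointly is unknown, and changes over time are given as descriptions.

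**Figure D3:**
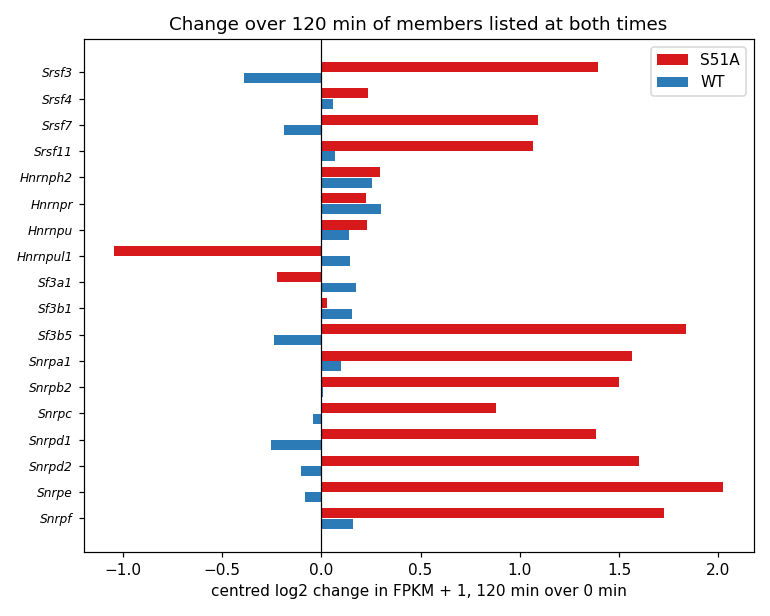
Centred change in log2 (FPKM + 1) from 0 to 120 min in S51A (upper bar of each pair) and WT (lower bar) for the 18 members listed at both times; 0 is the median of the 4328 genes listed at both. In S51A the bars of the 7 Snrp genes run from 0.88 to 2.02, and in WT from -0.25 to 0.16.

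Transcript length went with direction at 120 min, among the splicing factor genes as among all listed genes. Lengths are the exon bases, inside the deposited locus, of the GENCODE transcript with the longest coding part. The 15 members higher in S51A had a median length of 882 nt and the 8 lower ones 3971 nt, while for all listed genes these medians were 2058 nt and 3701 nt. All 8 members under 1000 nt were higher, as were 91.4% of the 491 listed genes of that length, and all 4 members of at least 4000 nt were lower, where 25.8% of listed genes were higher. Between 2000 and 4000 nt, where 46.9% of listed genes were higher, 4 members were higher (Srsf3 at 2585 nt, Srsf7 at 2288 nt, Srsf11 at 3086 nt and Hnrnph2 at 3960 nt) and 3 were lower. Across the 23 members the Pearson correlation between log2 length and log2 ratio was -0.76, against -0.28 over the 5771 listed genes with a length. These are correlations across genes, which share libraries and are not independent replicates. Level moved with direction as well: with a mean of at least 128 FPKM, 24.6% of listed genes and 1 of 13 members were lower at 120 min. At 0 min the order by length was the reverse, with 19.5% of listed genes under 1000 nt and 0 of 7 such members higher. The part of length and level in the calls at 120 min was not tested.

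**Figure D4:**
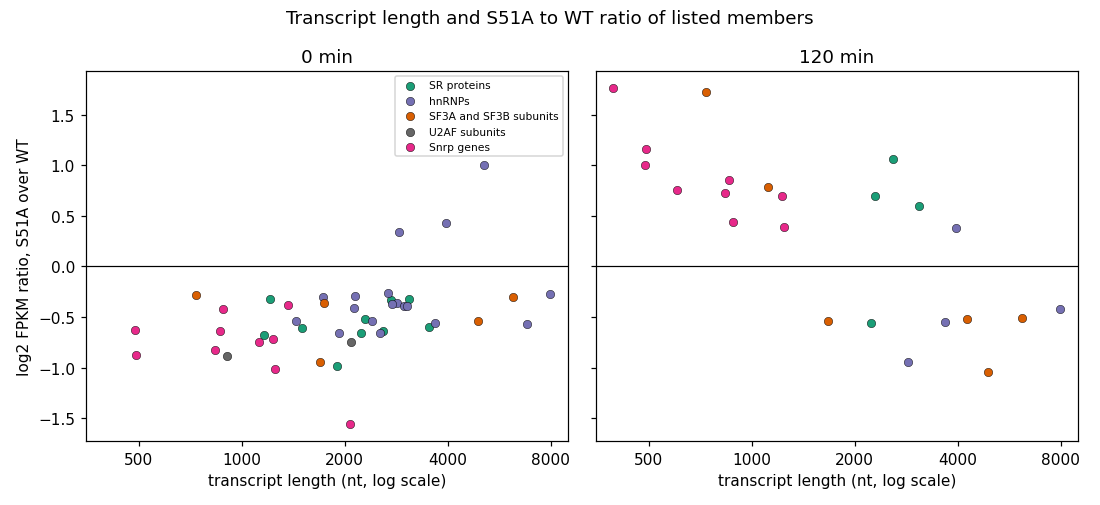
Transcript length (horizontal, log scale, nt) against log2 FPKM ratio of S51A over WT (vertical) for the 45 members listed at 0 min and the 23 listed at 120 min, coloured by role. At 120 min all 8 members under 1000 nt lie over 0 and all 4 of at least 4000 nt lie under 0.

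Some levels could hold reads of gene copies, since Sm and hnRNP genes have processed pseudogenes. Of the 51 members 23 shared no 75-base stretch, the read length, with annotated transcripts of another gene, and 13 shared over 10% of theirs. The highest shares were in U2af1 (47.4%), Hnrnpa1 (44.8%), Sf3b4 (43.2%) and Hnrnpf (37.9%). Among the genes that turned, it was 25.2% for Srsf3, 18.8% for Snrpf, 7.26% for Snrpe and 0 for Snrpb2 and Srsf7, and it was 16.0% for Snrpg. Among members with at most 10% shared, 31 of 33 were lower at 0 min and 11 of 19 were higher at 120 min. Among those with none shared, 18 of 19 were lower at 0 min. At 120 min 5 of them were higher and 6 lower, so the majority of higher calls was not seen in them. This set differs in make-up from the 23 listed members. Its only Snrp genes at 120 min, Snrpb2 and Snrpd3, were higher, and its lower genes included the long Sf3a1 (4916 nt) and Sf3b1 (6191 nt). The part of shared reads, length and role in these counts was not tested.

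Promoter sequences are shown for genes higher and genes lower at 120 min, because all listed Snrp genes were higher then. RefSeq (GRCm38.p6) had a promoter entry for 44 of the 51 members. Each line below gives the 150 bases before the annotated start, 5' to 3' on the strand of the gene, and capitals mark letters that match any of the motifs searched on both strands. Snrpg lies at chr6:86371390-86371539 on the plus strand, Snrpe at chr1:133610281-133610430 on the minus strand and Srsf3 at chr17:29032510-29032659 on the plus strand, all higher in S51A at 120 min. Sf3a1 lies at chr11:4160204-4160353 on the plus strand and Hnrnpul1 at chr7:25754760-25754909 on the minus strand, both lower at 120 min.
Snrpg: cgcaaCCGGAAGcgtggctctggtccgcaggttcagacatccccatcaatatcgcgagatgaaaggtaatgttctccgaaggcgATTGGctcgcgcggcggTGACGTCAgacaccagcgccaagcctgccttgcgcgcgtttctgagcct
Snrpe: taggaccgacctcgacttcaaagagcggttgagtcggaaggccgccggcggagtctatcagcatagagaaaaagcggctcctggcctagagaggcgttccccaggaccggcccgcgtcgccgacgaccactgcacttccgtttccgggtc
Srsf3: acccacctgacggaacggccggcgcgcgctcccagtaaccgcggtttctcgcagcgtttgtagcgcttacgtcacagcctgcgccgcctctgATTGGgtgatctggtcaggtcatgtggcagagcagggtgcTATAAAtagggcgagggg
Sf3a1: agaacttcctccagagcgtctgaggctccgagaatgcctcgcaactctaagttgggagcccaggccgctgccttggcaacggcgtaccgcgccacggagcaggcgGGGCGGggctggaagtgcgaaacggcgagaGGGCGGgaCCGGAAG
Hnrnpul1: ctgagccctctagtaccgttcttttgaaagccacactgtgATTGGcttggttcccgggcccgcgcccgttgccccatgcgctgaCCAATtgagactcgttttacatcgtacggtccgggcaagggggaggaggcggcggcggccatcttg

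The Snrpg stretch held an ETS core, a CCAAT box read on the other strand, and a cyclic AMP response element (TGACGTCA). Snrpe matched none of the motifs in these bases, Srsf3 held a CCAAT box and a TATA box (TATAAA), Sf3a1 held GC boxes (GGGCGG) and an ETS core, and Hnrnpul1 held 2 CCAAT boxes. Over the 250 bases before the start, and counting a gene once if any of its entries matched, GC boxes were in 32 of 44 members (72.7%) and in 35.4% of the 27025 genes with an entry. ETS cores (CCGGAAG) were in 14 of 44 members (31.8%) and 7.83% of genes, and NRF1-type repeats (GCGCA and GCGC around any 1 base) in 10 of 44 (22.7%) and 4.23%. CCAAT boxes were in 21 of 44 (47.7%) and 37.5%, TATA boxes in 6 of 44 (13.6%) and 14.3%, and E-boxes (CACGTG) in 3 of 44 (6.82%) and 6.86%. The cyclic AMP response element was in 2 of 44 members, both of them Snrp genes and Snrpg among them, and 1.77% of genes. The YY1 core (AAGATGG followed by CGG) was in none of the members and 0.359% of genes. The 27025 genes were not matched to the members in expression level. An excess over them is therefore not shown to be particular to splicing factor genes. Matches of different motifs may overlap, and a match is a description of letters.

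Genes that work with these factors were described from lists of named genes, whose counts stand beside 50.4%, 50.1% and 49.1% of all listed genes lower at 0, 15 and 120 min. Those shares are not matched to the lists in level. At 0 min 75% of all listed genes with a mean between 32 and 128 FPKM were lower, and 87% of those with at least 128 FPKM. The part of level in the counts of these lists was not tested. Genes for snRNP assembly, the machinery that loads Sm rings onto small nuclear RNA, were lower in S51A for 14 of 14 listed at 0 min, 14 of 14 at 15 min and 8 of 8 at 120 min. They stood on the other side from the Snrp genes at 120 min, but at lower levels, from 2.16 to 60.55 FPKM. The listed Snrp genes were then at 116 FPKM or more. At 120 min 52.9% of all listed genes with a mean of 1 to 8 FPKM were lower. The share was 56.6% from 8 to 32 FPKM, 45.3% from 32 to 128 FPKM and 24.6% from 128 FPKM. The part of level and length in this contrast was not tested. Gemin5, the subunit of the SMN complex that recognises small nuclear RNA, was at 7.67 FPKM in S51A and 24.8 FPKM in WT at 120 min, and at 13.6 FPKM in S51A and 29.6 FPKM in WT at 0 min. Other spliceosome proteins were lower for 39 of 42 at 0 min, 32 of 40 at 15 min and 15 of 30 at 120 min. At 120 min their share of lower calls was near the 49.1% of all listed genes, with the small Sm-like protein gene Lsm3 at 413 FPKM in S51A and 158 FPKM in WT and the GTPase gene Eftud2 at 64.5 FPKM in S51A and 168 FPKM in WT.

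Kinases that phosphorylate SR proteins and the importins that carry them were lower for 5 of 6 genes at 0 min, 6 of 8 at 15 min and 5 of 6 at 120 min. Srpk1, an SR protein kinase, was at 36.5 FPKM in S51A and 79.3 FPKM in WT at 0 min and at 24.9 FPKM in S51A and 79.3 FPKM in WT at 120 min. SR-related protein genes were lower for 11 of 12 at 0 min, 16 of 18 at 15 min and 11 of 15 at 120 min. Among the lower ones was the nuclear speckle scaffold gene Srrm2, at 35.3 FPKM in S51A and 71.5 FPKM in WT at 120 min (q = 0.0399 in the authors' deposited table). The largest difference in this list at 120 min was in Rsrc1, 1 of the 4 higher genes, at 32.9 FPKM in S51A and 15.35 FPKM in WT. Other splicing regulators were lower for 22 of 30, 24 of 31 and 13 of 19 at 0, 15 and 120 min. Among the lower ones was the muscleblind gene Mbnl3, at 3.27 FPKM in S51A and 13.2 FPKM in WT at 0 min. Tia1 was among the 8 higher at 0 min, at 29.9 FPKM in S51A and 12.3 FPKM in WT. Nova1, a mainly neuronal regulator, was at 0.0445 FPKM in S51A and 1.03 FPKM in WT at 0 min and was listed at 0 in S51A and at 1.21 FPKM in WT at 120 min. Exon junction and nonsense-mediated decay genes were lower for 10 of 12 and 10 of 11 at 0 and 15 min and 4 of 8 at 120 min. The decay kinase gene Smg1 was then at 4.11 FPKM in S51A and 12.7 FPKM in WT, and the exon junction gene Rbm8a at 125 FPKM in S51A and 45.3 FPKM in WT.

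**Figure D5:**
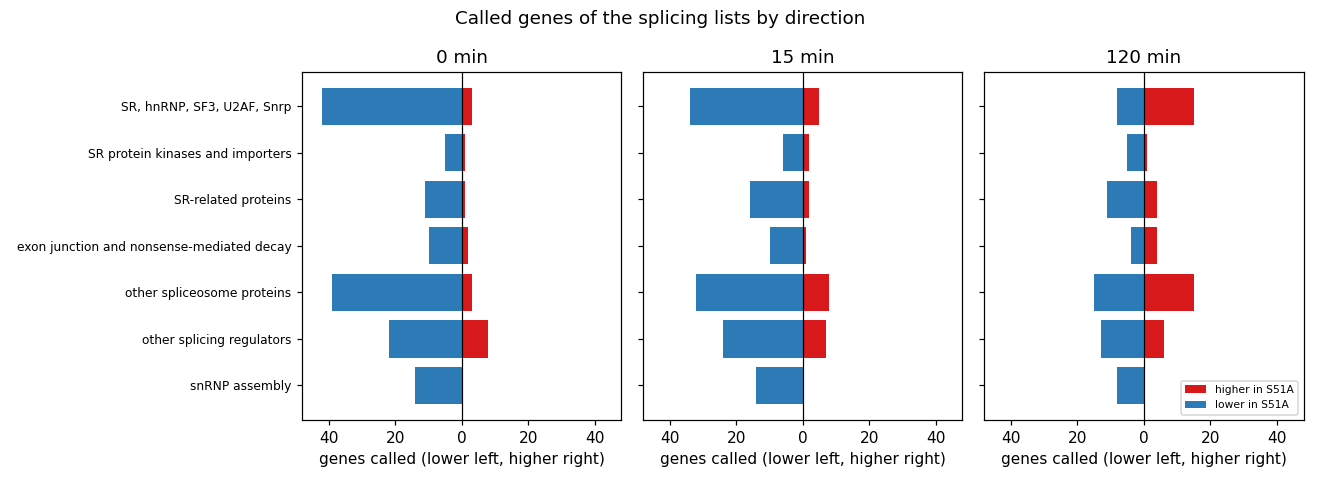
Number of genes called higher in S51A (right of 0) and lower in S51A (left of 0) at 0, 15 and 120 min for the members (top row) and 6 lists of related genes. Lower calls prevail in every row at 0 and 15 min; at 120 min the members are 15 higher and 8 lower, while snRNP assembly genes are 0 higher and 8 lower.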

How the data were processed

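Per the submitters' processing notes, the tools listed are STAR, Cufflinks and Cuffdiff and the build mm10, without versions or roles, and the labels' protocols describe poly(A) selection, a directional library kit and single-end reads of 75 nt. For the gene annotation, a name was not given in the sources used here. Per the file headers, the authors' 3 tables hold log2 FPKM for S51A and for WT, their log2 ratio and the q-value. In the deposited tables every entry is marked significant, the highest q-value is 0.05, and the log2 ratio equals S51A minus WT within 0.01. FPKM values here are 2 to the power of the deposited log2 value, and folds are their ratio. Entries with 2 symbols, date-like symbols or repeated symbols were left out, none of them a member, leaving 7549, 8289 and 6105 entries at 0, 15 and 120 min. One further value column in each table was not used. Deposited loci, which can span neighbouring genes, are given with 1 added to each start.

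With 1 value per group, no test beyond the authors' was made. Changes over time used log2 of FPKM plus 1, minus the median over genes present at both times. Counting and centring were tested on simulated ratios. Transcript lengths and shared 75-base stretches came from GENCODE M21, promoters from RefSeq GRCm38.p6. For each role and time up to 4 members by size of log2 ratio were named, with all members called in opposite directions, and from each related list up to 3 genes with at least 1 FPKM. Others were chosen with their values in view. The members and lists were chosen with earlier results of these data known. Alternatives were a q-value of at most 0.01, a minimum fold of 1.5, a minimum of 5 FPKM, other pseudocounts, no centring, and members listed at all 3 times. Analyses used Python 3.11.15, pandas 2.3.3 and numpy 2.4.6.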

Additional observations from a re-analysis of the deposited data

How the results depend on the processing

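Of 49 alternative values of 13 results (counts by direction, median ratios and median changes over time), 40 stayed within 1.5 times a count or 0.1 of a log2 median. A stricter q-value of 0.01, a minimum of 5 FPKM, the other pseudocounts and keeping all entries moved none of them. With a minimum fold of 1.5, counts were 1 higher and 19 lower at 0 min, 2 higher and 7 lower at 15 min, and 2 lower at 120 min, which follows from the small folds. With only the 12 members listed at all 3 times, the median log2 ratio at 120 min was 0.385 in place of 0.60, and the median change in S51A from 0 to 120 min was 0.84 in place of 1.08. Without centring that change was 0.902, and the one in WT was -0.035 in place of 0.06, so no direction is given for WT. No paired analysis was possible because the tables hold 1 value per group, and for the same reason leaving out a replicate was not run. The depth is unknown, so what it limits cannot be given.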

Other observations

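A pair of genes related to the small U2AF subunit, chosen after their values were seen, lay on opposite sides. Zrsr1, an imprinted gene, was at 3.51 FPKM in S51A and 0.578 FPKM in WT at 0 min, and at 3.78 FPKM in S51A and 0.536 FPKM in WT at 15 min. Zrsr2, its X-linked relative that recognises the 3' splice site of minor introns, was at 20.4 FPKM in S51A and 40.5 FPKM in WT at 0 min, and at 22.0 FPKM in S51A and 36.3 FPKM in WT at 15 min. Neither was listed at 120 min.

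Snhg14, the noncoding host transcript that lies next to Snrpn on chromosome 7, was lower together with it, at 0.543 FPKM in S51A and 1.82 FPKM in WT at 0 min and at 0.747 FPKM in S51A and 1.33 FPKM in WT at 15 min. Other imprinted genes stood on both sides at 0 min, with Cdkn1c at 48.5 FPKM in S51A and 5.58 FPKM in WT, Mest at 11.3 FPKM in S51A and 1.53 FPKM in WT, and H19 at 6.15 FPKM in S51A and 17.8 FPKM in WT. Neat1, the noncoding scaffold of paraspeckles, was at 24.3 FPKM in S51A and 85.0 FPKM in WT at 0 min and at 13.6 FPKM in S51A and 37.0 FPKM in WT at 120 min. The speckle RNA Malat1 was at 24.8 FPKM in S51A and 33.8 FPKM in WT at 0 min, and at 27.9 FPKM in S51A and 19.8 FPKM in WT at 120 min.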
